A study of Mus musculus with 8 samples.

Results

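The 10 genes described here encode dual specificity MAP kinase phosphatases (Dusp1, Dusp2, Dusp4, Dusp5, Dusp6, Dusp10 and Dusp16) and inhibitors that act further upstream on the same kinases (Spry1, Spry2 and Spred2). They were chosen by symbol, for their function and with earlier results of these data known. All 10 were found among the 17384 genes of the expression table. All 10 also passed the filter on low counts, which left 12340 genes. Of these 10 genes, 2 rose and 1 fell in EAF2Faslpr cells (adjusted p under 0.05, a threshold that 7.14% of all genes tested passed as higher and 4.96% as lower): Dusp1 was 9.67-fold higher, Dusp4 3.22-fold higher and Spry2 1.84-fold lower, while the other 7 gave no call.

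RNA was sequenced from spleen cells that had been sorted as B220+CD3+, in 4 libraries of Eaf2-/-Faslpr mice (titled EAF2Faslpr) and 4 of Faslpr mice (titled Faslpr). Both groups carry the lpr mutation of Fas, so the comparison is between Fas-mutant animals with and without the Eaf2 deletion. The stated purpose was to find signalling pathways behind apoptosis. The sources used here do not state the age or sex of the mice, the part of Eaf2 that was deleted, or whether libraries came from separate animals or pools, so p-values measure the spread between these libraries, which may be technical. In Faslpr mice, T cells that stain for the B220 isoform of CD45 accumulate because Fas, a death receptor, is defective. Eaf2 encodes a factor that binds the ELL transcription elongation proteins.

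MAP kinases (ERK, JNK and p38) are switched on by phosphorylation of a threonine and a tyrosine, and the dual specificity phosphatases switch them off by removing both phosphates. Many of these phosphatase genes are themselves induced by MAP kinase signalling, which makes them feedback inhibitors. Sprouty and Spred proteins restrain the pathway earlier, between receptors, RAS and RAF. In T cells the ERK branch is driven by the T cell receptor, and phosphatases such as DUSP2, DUSP4, DUSP5 and DUSP6 are known to limit it.

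Libraries held between 15.6 M and 18.6 M estimated reads (M, megareads). Eaf2 was at 4.43, 4.20, 4.02 and 6.29 CPM (counts per megaread of the tested genes after scaling) in EAF2Faslpr libraries, against 25.7, 24.2, 20.7 and 31.5 CPM in Faslpr libraries (log2 fold change −2.43, SE 0.18, adjusted p = 2.9e-05 in the quasi-likelihood test of edgeR, adjusted after Benjamini and Hochberg). A two-sided exact permutation test gave p = 0.0286, the smallest that 70 orderings can give. The CD3 genes were present in both groups, with Cd3e at 557 ± 39.3 CPM in EAF2Faslpr and 602 ± 53.0 CPM in Faslpr libraries (mean ± SD here and below, n = 4 each), and gene counts cannot show the B220 isoform. Transcripts of B cells were also present and higher in EAF2Faslpr libraries. EAF2Faslpr replicate 3 stood apart by the highest sums of B cell, of macrophage and monocyte, and of neutrophil markers, as given with the values below. At the threshold of 0.05 on the adjusted p, 12.1% of the 12340 genes passed in either direction, beside 3 of the 10 genes described here. Because the 10 were chosen with earlier results known, this share gives scale only and is not a test of the list.

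Dusp1, Dusp2, Dusp4 and Dusp5 encode the inducible phosphatases of the nucleus. Dusp1, whose product acts on p38, JNK and ERK, was at 123, 93.4, 164 and 183 CPM in EAF2Faslpr libraries 1 to 4, against 12.2, 13.8, 15.6 and 16.6 CPM in Faslpr libraries 1 to 4. The lowest EAF2Faslpr library lay far above the highest Faslpr library, and the EAF2Faslpr libraries also varied more among themselves (coefficient of variation 28.7%, against 13.3% in Faslpr). The log2 fold change was 3.27 (SE 0.21, edgeR's quasi-likelihood test, adjusted p = 9.67e-06), which ranked 47 of the 12340 genes by size and 20 by p. In bulk RNA, more cells with a transcript and more transcript per cell cannot be told apart. Without EAF2Faslpr replicate 3 the log2 fold change of Dusp1 was 3.19 (adjusted p = 6.29e-05).

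Dusp4, whose product inactivates ERK, JNK and p38 in the nucleus, was at 94.0, 79.4, 72.8 and 86.7 CPM in EAF2Faslpr libraries, against 33.9, 26.0, 26.5 and 17.2 CPM in Faslpr libraries. The groups did not overlap, and Faslpr replicate 4 was the lowest of the 8. The log2 fold change was 1.69 (SE 0.17, adjusted p = 0.000262 by edgeR's quasi-likelihood test). CPM ranges of the groups failed to overlap for 2 of the 10 genes, Dusp1 and Dusp4, where 17.7% of all genes tested did so. Leaving out any 1 of the 8 libraries kept the call of both genes, and without EAF2Faslpr replicate 3 the log2 fold change of Dusp4 was 1.74.

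Dusp2, which encodes a phosphatase found mainly in blood cells, was the most abundant of the 10 genes per length and gave no call. It was at 225, 251, 253 and 276 CPM in EAF2Faslpr libraries, against 212, 196, 175 and 255 CPM in Faslpr libraries. The groups overlapped through Faslpr replicate 4, and the difference was not called (log2 fold change 0.26, SE 0.11, adjusted p = 0.177 by edgeR's quasi-likelihood test). Without Faslpr replicate 4 it passed, at a log2 fold change of 0.37 (adjusted p = 0.0264).

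Dusp5, whose product binds and dephosphorylates ERK in the nucleus, had its mean on the other side. It was at 35.1, 31.4, 24.5 and 29.6 CPM in EAF2Faslpr libraries, against 39.2, 40.6, 32.1 and 40.3 CPM in Faslpr libraries. EAF2Faslpr replicate 1 lay above Faslpr replicate 3, so the groups overlapped, and the difference did not pass (log2 fold change −0.34, SE 0.12, adjusted p = 0.105 by edgeR's quasi-likelihood test). Without Faslpr replicate 3, which stood apart from the other 3 Faslpr libraries, it passed (adjusted p = 0.0492). Within a library the FPKM ratio of Dusp4 to Dusp5 is free of depth, and it lay at 1.99, 1.88, 2.21 and 2.18 in EAF2Faslpr libraries, against 0.644, 0.476, 0.613 and 0.316 in Faslpr libraries. Dusp4 thus exceeded Dusp5 in all 4 EAF2Faslpr libraries and in no Faslpr library. The ratio was picked with the values known and carries no test.

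Promoter windows from RefSeq on build GRCm38.p6, 250 bases before to 50 after the start of transcription, were matched for 9 of the 10 genes (not Dusp4). They are shown for the gene that rose most, for an inducible phosphatase gene without a call and for the gene that fell, 5′ to 3′ along the gene. Capitals mark matches to the cyclic AMP response element TGACGTCA, its core TGACG, the AP-1 element TGANTCA and the CArG box of serum response factor, searched on both strands.
Dusp1 (chr17:26508423-26508722, minus strand): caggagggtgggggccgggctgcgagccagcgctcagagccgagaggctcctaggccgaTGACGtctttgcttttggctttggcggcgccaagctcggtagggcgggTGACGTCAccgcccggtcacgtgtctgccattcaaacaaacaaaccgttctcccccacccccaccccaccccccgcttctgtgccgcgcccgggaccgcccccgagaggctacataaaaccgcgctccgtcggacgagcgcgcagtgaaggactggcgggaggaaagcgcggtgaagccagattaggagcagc
Dusp5 (chr19:53528895-53529194, plus strand): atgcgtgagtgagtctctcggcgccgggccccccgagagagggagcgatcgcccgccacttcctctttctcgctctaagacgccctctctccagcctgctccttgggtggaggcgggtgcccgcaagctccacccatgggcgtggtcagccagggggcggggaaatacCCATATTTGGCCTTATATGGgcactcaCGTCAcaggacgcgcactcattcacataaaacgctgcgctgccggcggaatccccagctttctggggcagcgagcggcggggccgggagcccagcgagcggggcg
Spry2 (chr14:105896770-105897069, minus strand): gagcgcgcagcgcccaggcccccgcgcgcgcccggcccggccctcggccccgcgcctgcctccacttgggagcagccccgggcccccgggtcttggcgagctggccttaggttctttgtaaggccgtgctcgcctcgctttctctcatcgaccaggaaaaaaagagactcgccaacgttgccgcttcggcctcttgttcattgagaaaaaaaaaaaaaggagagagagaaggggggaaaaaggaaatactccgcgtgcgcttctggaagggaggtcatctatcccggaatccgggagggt
The Dusp1 window holds 1 TGACGTCA at positions −143 to −136, counted from the start of transcription, and a separate TGACG at −191 to −187. The full element contains the core on each strand, so the core matched 3 times there. Of 32851 promoter windows of the same length in the table, 1.79% hold TGACGTCA and 20.8% hold TGACG. The windows of Dusp2, Dusp16 and Spred2, genes without a call, also hold 1 core each. The Dusp5 window holds 2 CArG boxes side by side, at −82 to −73 and −72 to −63, and 1 core at −55 to −51, where 1.63% of all windows hold a CArG box. No window of the 9 genes holds TGANTCA, found in 7.81% of all windows, and those of Spry2, Spry1, Dusp6 and Dusp10 hold none of the 4 motifs. A match describes the letters of the window and not a bound site.

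**Figure D1:**
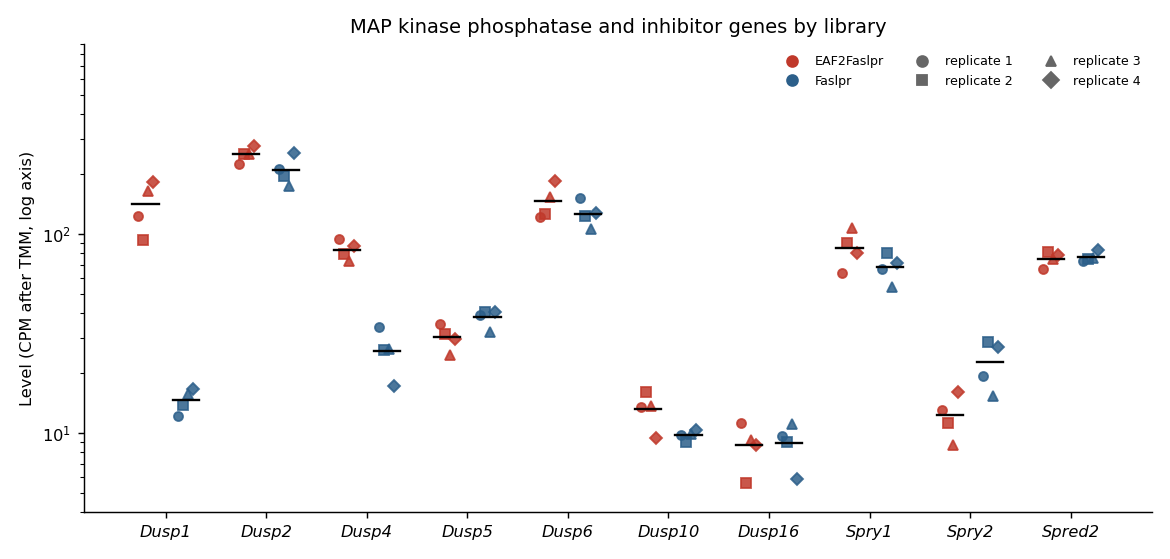
Level of each of the 10 genes in each library (CPM after TMM scaling, log axis), with the 4 EAF2Faslpr libraries left of the 4 Faslpr libraries, marker shapes for replicates and bars for group means. Dusp1 (EAF2Faslpr 93.4 to 183, Faslpr 12.2 to 16.6 CPM) and Dusp4 separate by group, and the other genes overlap.

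Dusp6 encodes the cytoplasmic phosphatase selective for ERK and is a widely used readout of ERK activity. It was at 122, 125, 153 and 185 CPM in EAF2Faslpr libraries, against 151, 122, 105 and 127 CPM in Faslpr libraries. The highest values stood in EAF2Faslpr replicates 3 and 4, but replicates 1 and 2 lay among the Faslpr libraries. The difference did not pass (log2 fold change 0.21, SE 0.15, adjusted p = 0.424 by edgeR's quasi-likelihood test).

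Dusp10 and Dusp16 encode phosphatases that prefer JNK and p38. Dusp10 was at 13.4, 16.0, 13.7 and 9.38 CPM in EAF2Faslpr libraries, against 9.74, 8.996, 9.85 and 10.3 CPM in Faslpr libraries. Of the EAF2Faslpr libraries 3 lay above all Faslpr libraries and replicate 4 lay within them, and the difference did not pass (log2 fold change 0.43, SE 0.16, adjusted p = 0.110 by edgeR's quasi-likelihood test). Without EAF2Faslpr replicate 4 it passed at a log2 fold change of 0.56 (adjusted p = 0.0223). Dusp16, the lowest of the 10 per length, was at 11.2, 5.57, 9.21 and 8.67 CPM in EAF2Faslpr libraries, against 9.63, 8.996, 11.0 and 5.86 CPM in Faslpr libraries. Its groups covered nearly the same range (log2 fold change −0.04, SE 0.24, adjusted p = 0.942).

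Of the Sprouty genes, Spry2 fell and Spry1 gave no call, and the difference between their changes was not tested. Spry2, an inhibitor of receptor signalling to RAS and ERK, was at 13.04, 11.2, 8.65 and 16.1 CPM in EAF2Faslpr libraries, against 19.3, 28.6, 15.2 and 27.1 CPM in Faslpr libraries. Only EAF2Faslpr replicate 4 reached above a Faslpr library, replicate 3. Spry2 fell by 0.88 on the log2 scale (SE 0.23, adjusted p = 0.0317 by edgeR's quasi-likelihood test). The call was lost in 5 of the 8 fits without 1 library: without EAF2Faslpr replicates 1, 2 or 3 (adjusted p = 0.0540, 0.0809 and 0.0791) and without Faslpr replicates 2 or 4 (0.0988 and 0.0779). The log2 fold change lay between −1.04 and −0.74 in all 8.

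Spry1, whose product is induced by T cell receptor signalling and restrains the same pathway, was at 63.5, 89.7, 107 and 79.6 CPM in EAF2Faslpr libraries, against 66.2, 80.1, 54.1 and 71.5 CPM in Faslpr libraries. The groups overlapped widely, and the difference did not pass (log2 fold change 0.32, SE 0.16, adjusted p = 0.249 by edgeR's quasi-likelihood test). The FPKM ratio of Spry1 to Spry2 was 5.23, 8.74, 13.2 and 5.30 in EAF2Faslpr libraries, against 3.53, 3.08, 4.0 and 2.86 in Faslpr libraries. Every EAF2Faslpr library had a higher ratio than any Faslpr library. The ratio was chosen after the values were seen and carries no test.

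Spred2, which blocks the activation of RAF by RAS, varied little between libraries. It was at 66.3, 81.2, 74.7 and 77.9 CPM in EAF2Faslpr libraries, against 73.4, 74.8, 75.5 and 83.3 CPM in Faslpr libraries. Coefficients of variation were 8.55% and 5.81%, and the log2 fold change was −0.03 (SE 0.08, adjusted p = 0.850 by edgeR's quasi-likelihood test). Its groups shared most of their range.

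**Figure D2:**
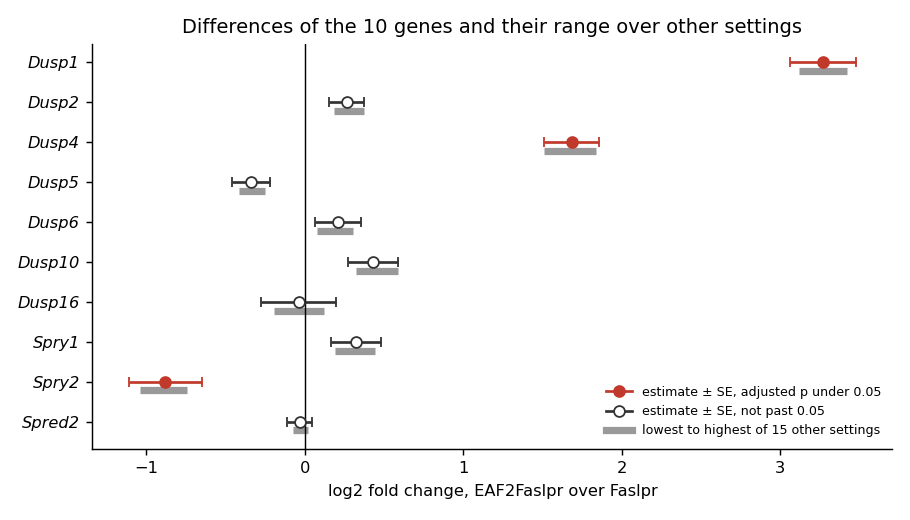
Log2 fold change of each of the 10 genes, EAF2Faslpr over Faslpr, with its standard error (point and bar, red where the adjusted p was under 0.05) and the lowest to highest estimate over 15 other settings (grey). The grey bars of Dusp16 and Spred2 cross zero and those of the other 8 genes do not, with Dusp1 (3.27) and Dusp4 (1.69) farthest from it.

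Compared per length, in the FPKM values of the deposited table, the order of the levels differed between the groups in several places. In EAF2Faslpr libraries the means ran from Dusp2 (161 ± 13.1 FPKM, SD, n = 4) through Dusp1 (74.6 ± 21.5), Dusp6 (53.4 ± 10.7), Spry1 (39.4 ± 8.94), Dusp4 (35.1 ± 3.67), Spred2 (18.9 ± 1.48), Dusp5 (17.1 ± 2.43), Dusp10 (5.89 ± 1.15) and Spry2 (5.25 ± 1.301) to Dusp16 (1.77 ± 0.471). In Faslpr libraries they ran from Dusp2 (133 ± 21.4 FPKM) through Dusp6 (45.7 ± 6.43), Spry1 (30.9 ± 5.10), Dusp5 (21.4 ± 2.23), Spred2 (19.5 ± 1.20), Dusp4 (10.8 ± 2.81), Spry2 (9.48 ± 2.73), Dusp1 (7.65 ± 1.06) and Dusp10 (4.33 ± 0.235) to Dusp16 (1.75 ± 0.439). Dusp1 thus ranked 2 of 10 in EAF2Faslpr and 8 of 10 in Faslpr cells, Dusp5 ranked 7 and 4, and Spry2 ranked 9 and 7. Dusp4 lay above Spred2 in all 4 EAF2Faslpr libraries and below it in all 4 Faslpr libraries, and their ranges did not overlap in either group. Among neighbours in this order, the ranges over EAF2Faslpr libraries overlapped for Dusp1 and Dusp6, Dusp6 and Spry1, Spry1 and Dusp4, Spred2 and Dusp5, and Dusp10 and Spry2. The ranges of Dusp1 (49.4 to 96.5 FPKM) and Spry1 (29.0 to 50.3 FPKM) overlapped there too. Within each of the 4 EAF2Faslpr libraries Dusp1 was nevertheless above Dusp6, and Dusp6 above Spry1. In Faslpr cells ranges of neighbours overlapped for Dusp5 and Spred2, Dusp4 and Spry2, and Spry2 and Dusp1. Those of Dusp4 (7.2 to 14.05 FPKM) and Dusp1 (6.34 to 8.73 FPKM) overlapped there as well.

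The FPKM values of the 7 phosphatase genes summed to 349 ± 39.0 in EAF2Faslpr and 224 ± 25.2 in Faslpr libraries (SD, n = 4 each). Dusp1 made up 21.1 ± 4.08% of that sum in EAF2Faslpr libraries and 3.44 ± 0.634% in Faslpr libraries. Dusp4 made up 10.2 ± 1.67% in EAF2Faslpr and 4.91 ± 1.42% in Faslpr libraries, whereas the share of Dusp2 was 46.3 ± 3.13% in EAF2Faslpr and 58.9 ± 3.49% in Faslpr libraries. Shares of 1 sum are tied to each other, so a higher share of Dusp1 lowers the others. Leaving Dusp1 out, the sum was 256 to 302 FPKM in EAF2Faslpr and 186 to 244 FPKM in Faslpr libraries. The 3 Sprouty and Spred genes summed to 63.5 ± 8.92 FPKM in EAF2Faslpr and 59.9 ± 8.34 FPKM in Faslpr libraries.

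**Figure D3:**
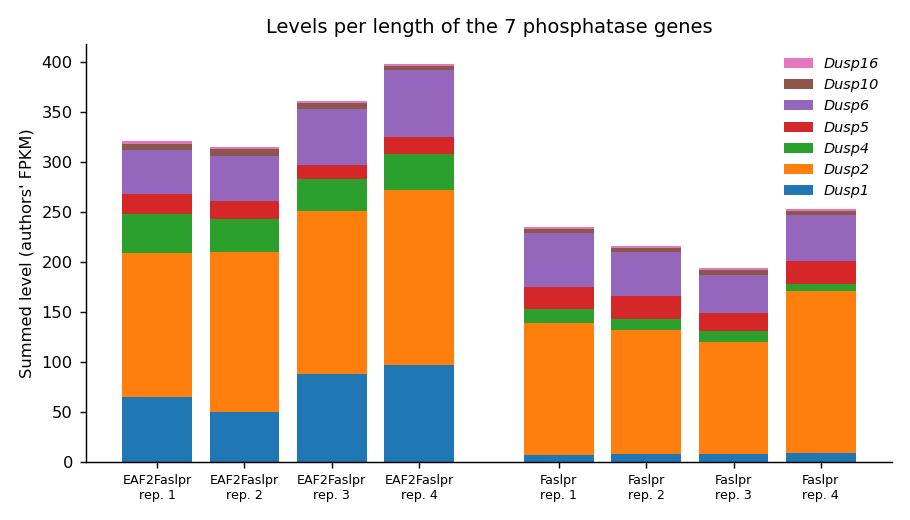
Summed level of the 7 phosphatase genes in each library (authors' FPKM, bars from zero), with 1 colour per gene, EAF2Faslpr libraries on the left and Faslpr libraries on the right. The Dusp1 segment is 49.4 to 96.5 FPKM tall in EAF2Faslpr libraries and 6.34 to 8.73 FPKM in Faslpr libraries.

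The profile of Dusp1 over the 8 libraries was compared with those of 9614 genes by the root-mean-square difference of log2 CPM after each gene's mean was removed. The closest were Sik1 (0.316 log2 units), Naip5 (0.379) and Nrp1 (0.412), where the median gene stood at 1.66. Sik1, a salt-inducible kinase, averaged 48.4 ± 6.46 CPM in EAF2Faslpr and 5.05 ± 1.36 CPM in Faslpr libraries. Naip5, an inflammasome sensor with near-identical copies that may share its reads, averaged 18.3 ± 3.14 CPM in EAF2Faslpr and 1.61 ± 0.322 CPM in Faslpr libraries. Nrp1, a semaphorin and growth factor coreceptor, averaged 18.1 ± 2.08 CPM in EAF2Faslpr and 1.72 ± 0.913 CPM in Faslpr libraries. Among the other 9 genes described here, Dusp4 was nearest to Dusp1 (0.887 log2 units) and Spry2 farthest (2.09). For Spry2 the closest genes were Pcbp3 (0.216), Pmm1 (0.218) and Iah1 (0.225), where the median gene stood at 0.562. These likenesses include the group difference itself and describe 8 libraries only.

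The rest of the family gave no call, but it is small: of all genes tested 7.14% passed as higher and 4.96% as lower. Of the remaining MAP kinase phosphatase, Sprouty and Spred genes 5 were tested (Dusp7, Dusp8, Dusp9, Spry4 and Spred1) and none passed (edgeR's quasi-likelihood test; 2 at an unadjusted p under 0.05, Dusp8 and Spred1). Dusp8, which encodes a phosphatase of JNK and p38, averaged 4.17 ± 0.559 CPM in EAF2Faslpr and 6.69 ± 1.86 CPM in Faslpr libraries without overlap (adjusted p = 0.0683). Spred1, the most abundant of them, was at 37.7 ± 5.42 CPM in EAF2Faslpr and 48.2 ± 9.89 CPM in Faslpr libraries (log2 fold change −0.36, adjusted p = 0.188), and passed without Faslpr replicate 4 (adjusted p = 0.0321). Of 11 atypical dual specificity phosphatase genes, which lack the kinase-binding region of the MAP kinase phosphatases, 1 fell and none rose. It was Dusp14, a phosphatase that restrains T cell receptor signalling, at 53.2 ± 1.83 CPM in EAF2Faslpr and 72.4 ± 11.3 CPM in Faslpr libraries (log2 fold change −0.44, SE 0.11, adjusted p = 0.0238). Its call held only without EAF2Faslpr replicate 2 or Faslpr replicate 3 among the fits that left out 1 library (adjusted p up to 0.0716 in the others). Dusp11, the most abundant, did not pass (log2 fold change −0.03).

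The kinases themselves gave no call. Of 17 MAP kinase and MAP2 kinase genes tested none rose and none fell (edgeR's quasi-likelihood test, 5 at an unadjusted p under 0.05). Of those 5, Mapk3, Mapk7, Mapk13 and Mapk14 had negative log2 fold changes and Map2k6 a positive one. An unadjusted p under 0.05 was common among all genes tested, as the rank of Spred1 above shows (2957 of 12340). Of all genes tested 7.14% rose and 4.96% fell, so a list of this size would hold few calls. The median log2 fold change of the 17 was 0.03, beside −0.01 for all genes tested. Of 15 kinases and adaptors upstream of JNK and p38, 1 rose, Map4k4 (log2 fold change 0.34, SE 0.07, adjusted p = 0.0104), while the most abundant, Map4k2, gave no call (log2 fold change −0.17, adjusted p = 0.410).

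Among 18 genes of the RAS and RAF module 3 rose and none fell, where 7.14% of all genes tested rose and 4.96% fell. The median log2 fold change of the 18 was 0.05. Rasgrp3, a RAS activator prominent in B cells, was at 17.2 ± 1.67 CPM in EAF2Faslpr and 7.05 ± 2.08 CPM in Faslpr libraries (log2 fold change 1.29, SE 0.19, adjusted p = 0.00167 by edgeR's quasi-likelihood test). The adaptor Gab2 rose by 1.43 on the log2 scale, at 5.11 ± 1.54 CPM in EAF2Faslpr and 1.90 ± 0.701 CPM in Faslpr libraries (adjusted p = 0.0143). The phospholipase Plcg1 rose by 0.26 (adjusted p = 0.0437), a call that held only without Faslpr replicate 3 among the fits that left out 1 library (up to 0.130 in the others). Lat, the most abundant, did not pass (log2 fold change 0.07).

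Of 14 other inhibitors of RAS and ERK signalling 1 rose and 3 fell, where 7.14% of all genes tested rose and 4.96% fell. The median log2 fold change of the 14 was −0.13. Pebp1, which restrains signalling to ERK, was at 176 ± 4.97 CPM in EAF2Faslpr and 245 ± 27.6 CPM in Faslpr libraries (log2 fold change −0.48, SE 0.09, adjusted p = 0.00557 by edgeR's quasi-likelihood test). For the adaptor Dok3 the log2 fold change was −0.45 (adjusted p = 0.00602), and for Rasa2, a RAS GTPase-activating protein, it was −0.51 (adjusted p = 0.0318). Dab2ip, of the same protein class, was higher by 0.98 on the log2 scale at 2.79 ± 0.566 CPM in EAF2Faslpr and 1.41 ± 0.432 CPM in Faslpr libraries (adjusted p = 0.0398). Rasa2 kept its call without EAF2Faslpr replicate 1, Faslpr replicate 3 or Faslpr replicate 4 (adjusted p up to 0.0985 in the other fits), and Dab2ip without EAF2Faslpr replicate 1 or Faslpr replicate 3 (up to 0.112 in the others). Ptpn22, the most abundant, did not pass (log2 fold change −0.13).

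Of 15 ERK response genes 6 rose and 1 fell, at a median log2 fold change of 0.19. Nr4a1, Fos and Fosb rose with the smallest p: Nr4a1 by 0.85 on the log2 scale (SE 0.10, adjusted p = 0.00042 by edgeR's quasi-likelihood test), Fos by 2.44 (SE 0.31, adjusted p = 0.000818) and Fosb by 1.91 (SE 0.26, adjusted p = 0.00133). Etv5, an ETS factor induced by ERK, fell to 42.0 ± 9.02 CPM in EAF2Faslpr libraries, against 68.4 ± 9.38 CPM in Faslpr libraries (log2 fold change −0.70, SE 0.16, adjusted p = 0.0154). Egr2, the most abundant, was at 446 ± 27.9 CPM in EAF2Faslpr and 463 ± 59.1 CPM in Faslpr libraries and did not pass. ERK response genes thus passed mostly as higher (6) and in 1 case as lower, where 7.14% of all genes tested were higher and 4.96% lower. Of the 6, Fos, Fosb, Nr4a1 and Ier2 also stand among the tissue handling genes below. The others, Fosl2 and Maff, were low, with means of 3.14 and 2.21 CPM in EAF2Faslpr libraries. The 8 genes without a call lay on both sides of zero, from Phlda1 (log2 fold change −0.35) to Ier3 (1.04).

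**Figure D4:**
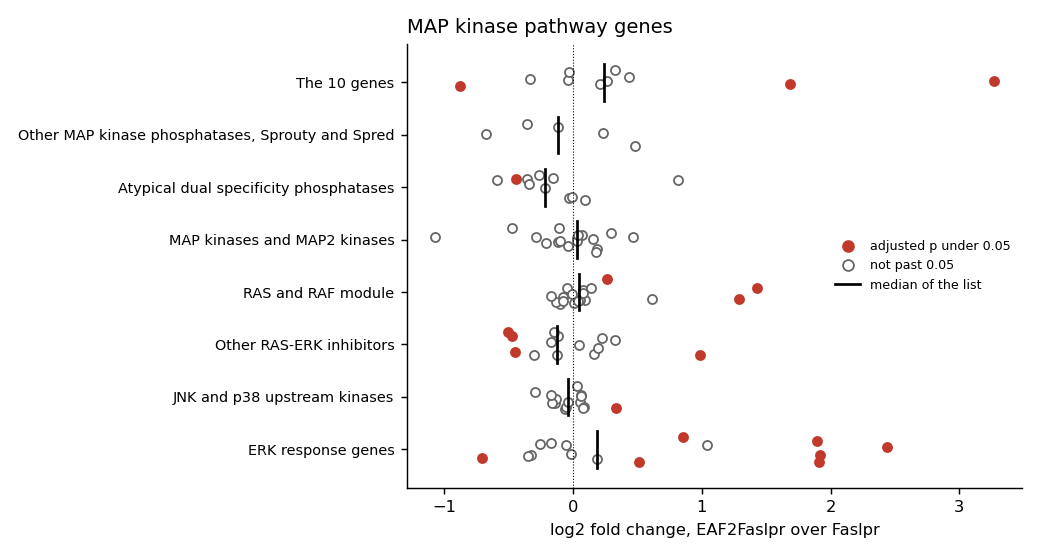
Log2 fold change, EAF2Faslpr over Faslpr, of each tested gene in 8 lists of MAP kinase pathway genes (red where the adjusted p was under 0.05, open otherwise; vertical bars are list medians; vertical scatter within a list has no meaning). The medians of the kinase lists lie near zero (0.03 and −0.04), though Mapk13, not called, lies at −1.07. Called genes lie on both sides among the 10 genes, the other RAS-ERK inhibitors and the ERK response genes.

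Other transcripts moved in the same libraries, and their counts stand beside 7.14% of all genes tested as higher and 4.96% as lower. All 14 B cell markers passed and were higher in EAF2Faslpr libraries, at a median of 4.16-fold, and their summed level was 384, 379, 714 and 384 CPM in EAF2Faslpr libraries 1 to 4, against 83.7, 124, 161 and 111 CPM in Faslpr libraries 1 to 4. Log2 fold changes were 2.54 for Pax5, the B lineage factor, and 2.001 for Cd22, the most abundant (adjusted p = 0.000467 and 0.000474 by edgeR's quasi-likelihood test). No B cell marker was at 0 in any library. Of 10 macrophage and monocyte markers 3 rose, at a median log2 fold change over the list of 0.72, among them Cybb, a subunit of the phagocyte oxidase (log2 fold change 1.45, adjusted p = 0.00539), while Cd68, the most abundant, did not pass (log2 fold change −0.23). Their summed level was 85.5, 89.2, 164 and 69.0 CPM in EAF2Faslpr libraries 1 to 4, and 55.4 to 69.2 CPM in Faslpr libraries. EAF2Faslpr replicate 4 thus lay within the Faslpr range. No neutrophil marker of 5 tested passed, at a median log2 fold change of 3.11. Of the 5, 4 had an unadjusted p under 0.05, which was common among all genes tested (rank 2957 of 12340 for Spred1, above). The summed level of the 5 was 94.3 CPM in EAF2Faslpr replicate 3, 14.4 to 17.8 CPM in the other 3 EAF2Faslpr libraries and 13.4 to 17.6 CPM in Faslpr libraries. Cxcr2, the most abundant, did not pass (log2 fold change −0.12). Of 11 T cell markers 1 rose, Cd2 (log2 fold change 1.05, adjusted p = 0.00455), and Ptprc, the CD45 gene and the most abundant, did not pass (log2 fold change 0.22).

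Genes that answer tissue handling, a group to which Dusp1 is often counted, rose in 10 of 19 tested members (7.14% of all genes tested rose). None of the 19 fell, and they had a median of 1.81-fold. Their summed level was 7816, 7236, 8213 and 9546 CPM in EAF2Faslpr libraries 1 to 4, against 7002, 5886, 6290 and 6937 CPM in Faslpr libraries 1 to 4, most of it from heat shock genes, of which Hspa8, the most abundant of the list, gave no call (log2 fold change 0.08). Junb, Jun and Nfkbia had the smallest p, with log2 fold changes of 1.59, 5.97 and 1.40 (adjusted p = 3.23e-05, 5.65e-05 and 0.00025 by edgeR's quasi-likelihood test). Jun averaged 173 ± 113 CPM in EAF2Faslpr and 2.74 ± 0.608 CPM in Faslpr libraries. Fos, Fosb, Nr4a1 and Ier2, which rose, stand in this list and among the ERK response genes. So do Egr1 (log2 fold change −0.02) and Ier3 (1.04), which gave no call. Dusp1 and this sum had the same order over the 4 EAF2Faslpr libraries but not over the 4 Faslpr libraries, where replicate 1 had the highest sum and the lowest Dusp1 level. As heat shock genes make up most of the sum, these orders say little about the members that rose. The part of B cell transcripts and of the handling response in the values of Dusp1, Dusp4 and Spry2 was not tested. Without EAF2Faslpr replicate 3, the library with the highest B cell sum, the log2 fold changes were 3.19 for Dusp1, 1.74 for Dusp4 and −0.75 for Spry2. Of these Spry2 did not pass (adjusted p = 0.0791), as it also did not without several other single libraries. This fit does not remove the B cell difference, since the remaining EAF2Faslpr libraries had sums of 379 to 384 CPM, above those of all Faslpr libraries.

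**Figure D5:**
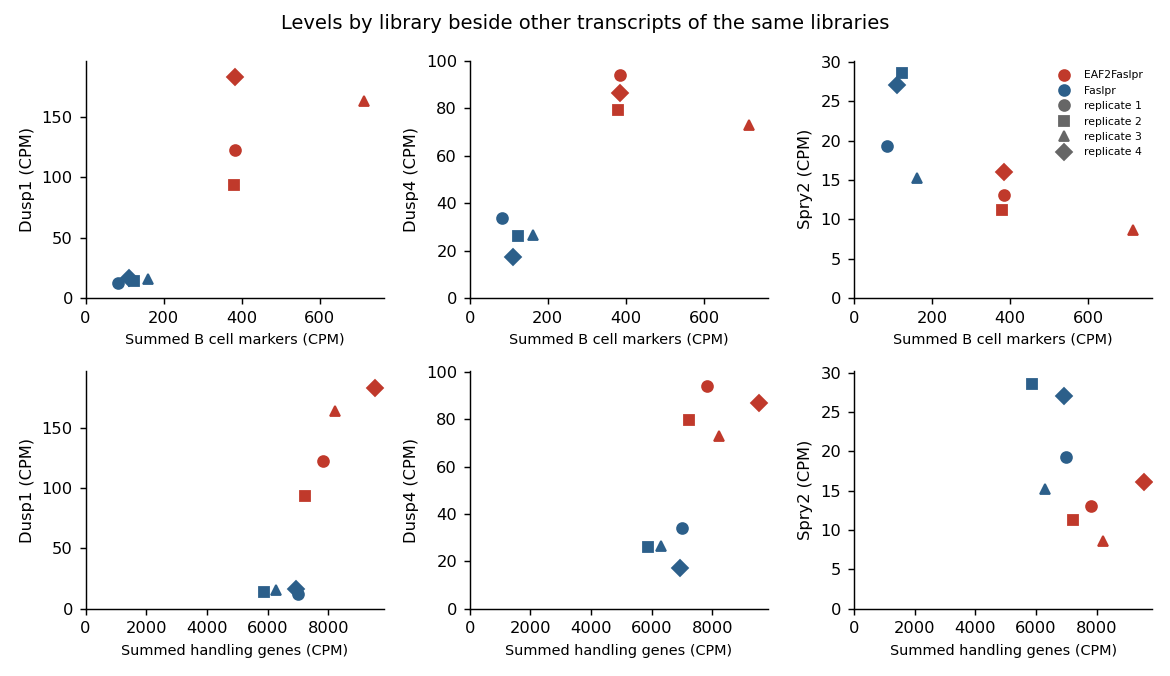
Levels of Dusp1, Dusp4 and Spry2 in each library (CPM) against the summed level of B cell markers (top row) and of handling response genes (bottom row) in the same library. EAF2Faslpr replicate 3 is far to the right in the top row (714 CPM). Among the 4 EAF2Faslpr libraries it has the second highest Dusp1 level and the lowest Dusp4 level, and its Spry2 level (8.65 CPM) is the lowest of all 8 libraries.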

How the data were processed

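RNA was measured in 4 EAF2Faslpr and 4 Faslpr libraries, grouped and numbered by their titles. Per the labels' protocols, TRIzol-extracted RNA went into mRNA libraries for DNBSEQ. Per the file headers, the deposited table gives the authors' estimated counts per gene, unscaled, and their FPKM values. The submitters' processing notes name RSEM 1.3.1, Bowtie2 2.4.5, HISAT2 2.2.1 and build GRCm39, and the sources used here do not state the roles of these tools, the annotation or the strand setting. Of the estimated counts, 36.8% were whole within 0.001. A further 16 columns of per-sample values (TPM and normalised counts) were not used. Reads that match several genes are divided by estimate, so values of near-identical or overlapping genes are uncertain.

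Estimated counts were rounded, genes kept by filterByExpr and libraries scaled by TMM. All genes were tested together with edgeR's quasi-likelihood test (edgeR 4.0.16 in R 4.3.3). P-values were adjusted over every gene tested (Benjamini-Hochberg), and 0.05 was the threshold. Fold changes on the log2 scale are EAF2Faslpr over Faslpr, and standard errors are the absolute log2 fold change over the square root of F. The fit was tested on simulated data. DESeq2 1.42.0, limma-voom (limma 3.58.1), other scalings, no filter, a replicate block and leaving out libraries were the alternatives. Within groups, libraries differed beyond counting noise (chi-square per degree of freedom 8.97 to 35.1). A floor of 3 reads corresponds to 0.161 to 0.193 CPM, for counting error only. FPKM was used only for levels per length.

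The 10 genes, the pathway and marker lists and the tests were chosen with earlier results of these data known. By rule the text names the 10 genes, Eaf2, up to 3 passing genes in each direction from each pathway list (up to 2 from each cell type list), the most abundant of each list, and the 3 genes closest in profile (mean of at least 5 CPM, log2 with a prior count of 1) to the 10 genes' smallest p in each direction. Dusp7, Dusp8, Dusp9, Spry4, Cd3e, Ier2, Egr1, Ier3 and Mapk13 were named after their values were seen. So were Mapk3, Mapk7, Mapk14, Map2k6, Fosl2, Maff and Phlda1. Some genes that the rule names are not reported here. Motifs were counted in RefSeq promoter windows by letter match.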

Additional observations from a re-analysis of the deposited data

Results flagged for a closer look

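Dusp5 in Faslpr replicate 3 was at 32.1 CPM, below the other 3 Faslpr libraries (39.2 to 40.6 CPM), and its gap to the nearest of them took up 0.838 of the group's range, above Dixon's 95% critical value for 4 samples. It was the only 1 of 22 groups of 4 examined (Eaf2 and the 10 genes, in EAF2Faslpr and Faslpr libraries) to do so, and chance flags about 1 in 20 groups.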

How the results depend on the processing

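Dusp1, Dusp4 and Eaf2 kept their direction and their call in all 15 other settings (log2 fold change 3.12 to 3.43, 1.51 to 1.84 and −2.60 to −2.31). Dusp6 and Spry1 gave no call in any of the 15. DESeq2 gave the most calls of the 15, with 1898 of all genes against 1493 and 22 genes of the pathway lists against 16. Over the fits without 1 library, 2 to 4 of the 10 genes passed (2 to 3 higher and 0 to 2 lower), 10 to 16 genes of the pathway lists passed against 16 with all libraries, with 10 without EAF2Faslpr replicate 3, Faslpr replicate 1 or Faslpr replicate 2, and 990 (without Faslpr replicate 2) to 1599 of all genes passed against 1493, of which 618 to 940 were higher and 372 (again without Faslpr replicate 2) to 659 lower. Without both replicates numbered 4, 403 of all genes were lower against 612, and none of the 10, as Spry2 lost its call (adjusted p = 0.0584) and Dusp10 gained one (adjusted p = 0.0276). With the replicate number as a block, 2 of the 10 genes were lower, Spry2 and Dusp5 (adjusted p = 0.0400). The numbers were not taken as pairs: deviations of same-numbered libraries correlated at 0.122, 0.169, 0.0656 and −0.0515, and not every library correlated best with its own number. Dusp16 changed sign without EAF2Faslpr replicate 2 (log2 fold change 0.12), Faslpr replicate 1 (0.0026) and Faslpr replicate 3 (0.082) and reached −0.19 without Faslpr replicate 4. Spred2 changed sign without EAF2Faslpr replicate 1 (0.022) and Faslpr replicate 4 (0.010) and reached −0.073 without EAF2Faslpr replicate 2. Neither passed in any of the 15 settings. Of the other genes named, none with a call, and over the fits without 1 library, Dusp11 changed sign without EAF2Faslpr replicate 1 (0.0091, lowest −0.069), Lat without EAF2Faslpr replicate 3 (−9.6e-06, highest 0.20) and Egr2 without Faslpr replicate 1 (0.037, lowest −0.10). Outside the fits without 1 library, Plcg1 also lost its call with no filter (adjusted p = 0.0702), with the block (0.0988) and without both replicates 4 (0.151). Dab2ip lost it in the same 3 settings (0.0520, 0.0510 and 0.186). Without both replicates 4, Dusp14 (0.106), Gab2 (0.0586), Pmm1 (0.0763) and Iah1 (0.0540) also lost theirs. Causes of these shifts were not tested.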
